A study of Mus musculus with 5 samples.

Results

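The citric acid cycle enzymes described here are 9 genes, namely Cs, Idh3a, Idh3b, Idh3g, Ogdh, Suclg1, Sucla2, Fh1 and Mdh2, taken by symbol from the 41128 genes of the deposited table. All 9 were found and all 9 passed the filter on low values. They were measured in RNA of sorted cardiomyocyte nuclei. The hearts were those of FVB mice, 8 weeks of age, whose left anterior descending artery had been tied off for good 7 days earlier. All groups shared the infarct, since both regions came from ligated hearts and no unoperated heart was analysed here. The border zone group, muscle beside the infarct, held 3 libraries, from mice 32, 34 and 40. The remote group, muscle away from the infarct in such hearts, held 2 libraries, from mice 40 and 43. The 5 libraries thus came from 4 animals, of which only mouse 40 gave both regions. Nuclei were sorted by flow cytometry for PCM-1, a protein of the centrosome that surrounds the nucleus in cardiomyocytes, and cDNA was amplified from an input of 500 pg.

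The citric acid cycle runs in the mitochondrial matrix. It oxidizes the acetyl group of acetyl-CoA, which comes from fatty acids, pyruvate and ketone bodies, to carbon dioxide, and it hands the electrons as NADH and reduced flavin to the respiratory chain. The heart works almost without pause and draws most of its ATP from this route, so cardiomyocytes are among the cells richest in its enzymes. All of the enzymes are encoded in the nucleus. Citrate synthase (Cs) opens the cycle, isocitrate dehydrogenase (Idh3a, Idh3b, Idh3g) and the alpha-ketoglutarate dehydrogenase complex (Ogdh) carry out its oxidative decarboxylations, succinyl-CoA ligase (Suclg1, Sucla2) makes a nucleoside triphosphate, and fumarase (Fh1) and malate dehydrogenase (Mdh2) regenerate oxaloacetate.

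The libraries held 11324539 to 25014205 reads, recovered from the deposited normalized values. At the depth of the shallowest library, 15843, 18288 and 19602 genes were expected in border zone mice 32, 34 and 40, against 22670 and 22386 in remote muscle of mice 40 and 43. All 3 border zone libraries thus held fewer genes than both remote libraries, and mouse 32 the fewest. All 8 cardiomyocyte markers were detected, and their summed level was 1832050 to 6292370 normalized reads in border zone libraries and 990896 and 1468210 in remote libraries. Of 8 fibroblast markers, all tested, the sum was 3386 to 5142 in the border zone and 1975 and 2761 in remote muscle. The smooth muscle and pericyte markers, 7 of 8 tested, summed to 6312 to 13106 in the border zone and 1087 and 2631 in remote muscle. Endothelial (7 of 8 tested), macrophage (5 of 8 tested) and lymphocyte (2 of 8 tested) sums overlapped between the regions, at 268 to 596, 96.7 to 217 and 28.9 to 110 in the border zone and at 334 and 414, 214 and 286, and 13.9 and 48.3 in remote muscle. Cd14 and Cd3g were at 0 in every library. As reads per 1000000 the fibroblast sums ran the other way, at 118 to 231 in the border zone and 239 and 272 in remote muscle, the cardiomyocyte sums overlapped, and the macrophage sums no longer overlapped, at 2.44 to 14.8 in the border zone and 21.1 and 34.5 in remote muscle. The smooth muscle and pericyte sums kept their order on that scale, at 331 to 431 in the border zone and 131 and 259 in remote muscle. The part of these differences between libraries in the results that follow was not tested.

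Stretches around the start of a gene are where its transcription is set, so promoter windows are shown for enzymes with some of the lowest log2 changes and for Ogdh, the most abundant. Windows from RefSeq, running from 250 bases before to 50 bases after the start on assembly GRCm38.p6 of strain C57BL/6J, were matched for 8 of the 9 genes, all but Idh3a. Capitals mark any of the 6 searched motifs on either strand, and each sequence reads 5′ to 3′ along the gene.
Cs, chr10:128337477-128337776, plus strand: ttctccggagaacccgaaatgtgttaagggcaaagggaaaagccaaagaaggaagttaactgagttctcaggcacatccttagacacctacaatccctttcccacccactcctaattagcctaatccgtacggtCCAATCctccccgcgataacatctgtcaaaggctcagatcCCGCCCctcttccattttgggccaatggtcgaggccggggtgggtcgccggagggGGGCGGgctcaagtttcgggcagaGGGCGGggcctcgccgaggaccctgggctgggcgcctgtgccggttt
Suclg1, chr6:73248255-73248554, plus strand: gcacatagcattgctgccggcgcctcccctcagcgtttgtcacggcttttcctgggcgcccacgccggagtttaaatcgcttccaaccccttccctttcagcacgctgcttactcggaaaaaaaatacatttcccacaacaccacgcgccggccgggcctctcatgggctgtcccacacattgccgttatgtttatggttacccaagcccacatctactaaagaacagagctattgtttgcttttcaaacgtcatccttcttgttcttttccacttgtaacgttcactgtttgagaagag
Sucla2, chr14:73552536-73552835, plus strand, at a start that lies inside the annotated gene span: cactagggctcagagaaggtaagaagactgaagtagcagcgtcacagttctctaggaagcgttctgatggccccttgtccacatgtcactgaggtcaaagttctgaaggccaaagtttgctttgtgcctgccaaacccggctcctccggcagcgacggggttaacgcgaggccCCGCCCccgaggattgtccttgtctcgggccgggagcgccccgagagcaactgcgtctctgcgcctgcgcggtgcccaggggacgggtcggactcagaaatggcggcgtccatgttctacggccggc
Ogdh, chr11:6291409-6291708, plus strand, the nearest of 6 listed starts to the annotated gene start: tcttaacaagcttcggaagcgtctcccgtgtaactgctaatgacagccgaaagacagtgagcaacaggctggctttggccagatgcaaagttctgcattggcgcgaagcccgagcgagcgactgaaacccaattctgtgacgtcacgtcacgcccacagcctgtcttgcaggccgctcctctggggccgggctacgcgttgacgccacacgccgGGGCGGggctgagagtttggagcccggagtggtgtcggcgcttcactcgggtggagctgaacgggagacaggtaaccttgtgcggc
The motifs searched were the core of the site for estrogen-related receptors (ERR), read as AAGGTCA, the site of ETS factors such as GABPA, read as CCGGAAG, and the core of the NRF1 site, read as TGCGCA. The others were the Sp1-type box, read as GGGCGG and called the GC box here, the NF-Y-type box, read as CCAATC, and the E box, read as CACGTG. No matches overlapped each other in the windows printed. The Cs window held 3 GC boxes and 1 NF-Y-type box, the Sucla2 and Ogdh windows held 1 GC box each, and the Suclg1 window held none of the 6 motifs. Over the 8 windows, 5 held a GC box (Cs, Fh1, Mdh2, Ogdh and Sucla2), against 35.7% of all 32851 promoters in the table. An NF-Y-type box was in 3 (Cs, Fh1 and Idh3b), against 16.1% of all promoters, an ETS motif in 2 (Idh3b and Idh3g), against 8.86%, and the NRF1 core in 1 (Mdh2), against 7.76%. The ERR core and the E box were in none of the 8, and in 4.72% and 7.15% of all promoters. Ogdh and Sucla2 each held a single GC box and no other searched motif.

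The comparison of border zone with remote nuclei asks which genes differ in cardiomyocytes next to the infarct. All 9 enzyme genes had lower mean log2 levels in the border zone. The largest differences were those of Cs, Sucla2, Suclg1 and Idh3a, with log2 changes of -2.34 to -2.04, and the smallest on the deposited scale was that of Ogdh, at -0.12. The place of Ogdh depended on the scaling, since its change was -1.25 under quantile normalization, -1.28 under cyclic loess and -1.39 with GC and abundance trends removed, where Idh3g gave -1.06, -1.05 and -1.05. For 6 of the 9 genes every border zone library lay below both remote libraries, namely Cs, Idh3b, Suclg1, Sucla2, Fh1 and Mdh2. The same held for 20.3% of the 14989 genes tested, and the opposite, every border zone library above both remote ones, for 18.9% of them and for 0 of the 9. The members' median log2 change was -1.49, against -0.21 over all tested genes, and 55% of all tested genes had a change below 0 and 45% above 0. A log2 change below -1 was found for 6 of the 9, against 31.3% of all tested genes.

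None of the 9 passed the test. limma on log2(value + 1), with Benjamini-Hochberg adjustment over all tested genes, called 0 of the 9 at an adjusted p under 0.05, as it called 0% of all genes in either direction, and the members' adjusted p ran from 0.173 to 0.913. At an unadjusted p under 0.05 limma gave 5 of the 9 (Cs, Idh3a, Suclg1, Sucla2 and Mdh2), against 7.87% of all tested genes on the lower side and 10.2% on the higher side. That count was 1 without border zone mouse 34 and 9 with total-count scaling. Of all tested genes, in both directions together, 2708 had such a p with all libraries on the deposited scale. That number was 1911 without border zone mouse 34 and 4365 with total-count scaling, where the median change of all tested genes was -1.59. Dropping a remote library leaves 1, so only changes are given. The members' median was -1.08 without remote mouse 43, against -0.20 over all tested genes. Without remote mouse 40 it was -2.01, against -0.22. edgeR on the recovered reads called 0 at an adjusted p under 0.05 and gave 4 at an unadjusted p under 0.05 (Cs, Idh3b, Sucla2 and Mdh2), against 6.52% of all genes on the lower side and 9.45% on the higher. DESeq2 on the recovered reads called 0 of the 9, against 1.98% of all genes with an adjusted p on the lower side and 3.46% on the higher, and gave 5 at an unadjusted p under 0.05 (Cs, Suclg1, Sucla2, Fh1 and Mdh2), against 5.91% of all genes on the lower side and 7.61% on the higher. The authors' deposited table called none of the 9, against 1.98% of its genes lower and 3.46% higher, and the smallest adjusted p among the 9 was 0.101, for Cs. Its values for the 9 were nearly the same as those of DESeq2 on the recovered reads, so the 2 are not separate results. RNA from sorted nuclei of a region cannot tell fewer nuclei with the transcript from less transcript per nucleus.

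**Figure D1:**
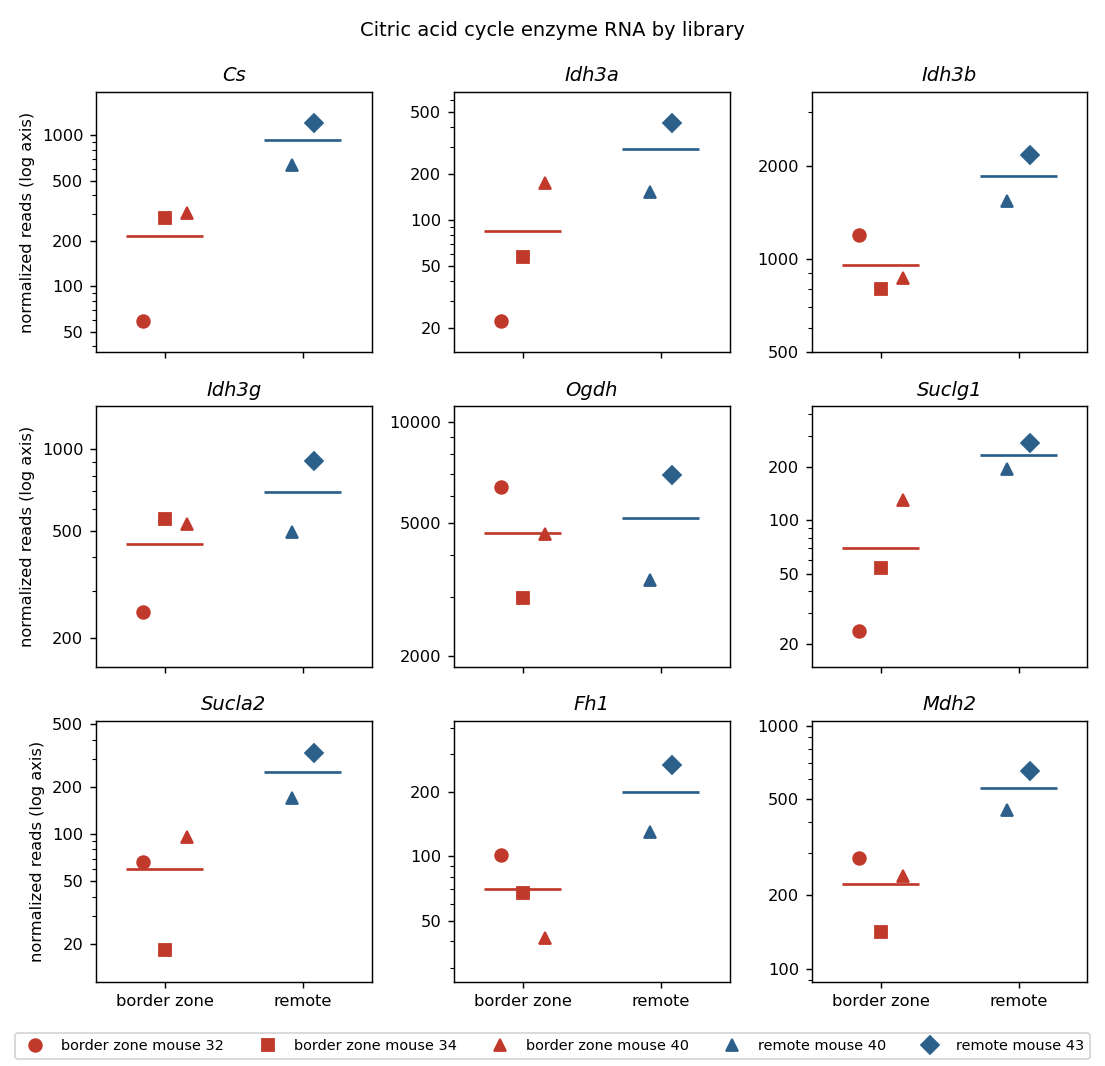
Normalized reads (log axis, a scale of its own in each panel) of the 9 enzyme genes in 3 border zone and 2 remote libraries, with a line at each group mean; triangles mark mouse 40 in both regions. The groups do not overlap for Cs, Idh3b, Suclg1, Sucla2, Fh1 and Mdh2, and overlap for Idh3a, Idh3g and Ogdh.

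Citrate synthase joins acetyl-CoA to oxaloacetate, and its activity, which was not measured here, is widely used as a measure of mitochondrial content. Its RNA showed the largest difference of the 9 in the fit of all 5 libraries. Cs (ENSMUSG00000005683, mm10 chromosome 10, 128337734 to 128362479, plus strand) had 58.6, 285 and 307 normalized reads in the border zone of mice 32, 34 and 40, against 638 and 1213 in remote muscle of mice 40 and 43. All 3 border zone libraries were low, and mouse 32 was far below the other 2. Border zone libraries averaged 217 ± 137 (SD, n = 3) and remote libraries 926 ± 407 (SD, n = 2), which gave a log2 change of -2.34 ± 0.75 (SE, 95% interval -3.98 to -0.70, limma adjusted p = 0.173). Within mouse 40 the difference was -1.05 on the log2 scale. Without 1 library the change ran from -2.80 to -1.57. The -1.57 was found without border zone mouse 32, where Sucla2 (-2.45) and Fh1 (-1.80) had larger differences than Cs.

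NAD-dependent isocitrate dehydrogenase is a hetero-oligomer of a catalytic alpha subunit and the beta and gamma subunits, of which gamma takes part in allosteric control. Idh3a, the catalytic alpha subunit (ENSMUSG00000032279, chromosome 9, 54586334 to 54604661, plus strand), had 22.2, 57.8 and 174 normalized reads in the border zone of mice 32, 34 and 40, against 152 and 425 in remote muscle of mice 40 and 43. The border zone library of mouse 40 lay above the remote library of the same animal, so the groups overlapped. Its log2 change of -2.04 ± 0.93 (limma adjusted p = 0.275) ran from -2.79 to -1.30 without 1 library, and the difference within mouse 40 was 0.20.

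The beta subunit was the second most abundant of the 9 per kilobase. Idh3b (ENSMUSG00000027406, chromosome 2, 130279309 to 130284547, minus strand) had 1197, 799 and 865 normalized reads in the border zone of mice 32, 34 and 40, against 1538 and 2177 in remote muscle of mice 40 and 43. All 3 border zone libraries lay below both remote libraries, with mouse 32 the nearest to them. The log2 change was -0.96 ± 0.47 (limma adjusted p = 0.299), and within mouse 40 the difference was -0.83. Idh3g, the gamma subunit (ENSMUSG00000002010, chromosome X, 73778963 to 73786897, minus strand), had 250, 552 and 531 normalized reads in the border zone of mice 32, 34 and 40, against 494 and 903 in remote muscle of mice 40 and 43. Mouse 32 alone was low in the border zone, and the other 2 libraries lay above the lower remote one. The log2 change of Idh3g was -0.67 ± 0.57 (95% interval -1.92 to 0.58, limma adjusted p = 0.544), with 0.11 within mouse 40. It was -0.30 without border zone mouse 32, -0.24 without remote mouse 43 and -1.11 without remote mouse 40.

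The subunits differed in how far the libraries spread. Within a library a ratio between genes does not depend on how the libraries are scaled to each other. The level of Idh3b per kilobase was 63.3, 16.2 and 5.82 times that of Idh3a in border zone mice 32, 34 and 40, against 11.9 and 6.0 times in remote mice 40 and 43. Idh3g stood at 13, 11 and 3.52 times the level of Idh3a per kilobase in these border zone libraries, against 3.76 and 2.45 times in the remote ones. In border zone mice 32 and 34 the alpha subunit, with 14 and 47 reads, was lower relative to its partners than in either remote library, whereas border zone mouse 40 gave ratios near those of remote muscle. Both ratios overlapped between the regions.

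Ogdh, the decarboxylating E1 subunit of the alpha-ketoglutarate dehydrogenase complex, had the highest level per kilobase of the 9 in every library and, on the deposited scale, the smallest difference. Ogdh (ENSMUSG00000020456, chromosome 11, 6291633 to 6356642, plus strand) had 6405, 2978 and 4640 normalized reads in the border zone of mice 32, 34 and 40, against 3390 and 6955 in remote muscle of mice 40 and 43. The groups overlapped almost wholly. Border zone libraries averaged 4674 ± 1714 (SD, n = 3) and remote libraries 5172 ± 2520 (SD, n = 2), which gave a log2 change of -0.12 ± 0.51 (95% interval -1.24 to 1.0, limma adjusted p = 0.913). The interval leaves room for changes of more than 1 log2 unit lower. The sign was not stable, being 0.45 within mouse 40, 0.17 without border zone mouse 34 and 0.39 without remote mouse 43, and the change lay 0.09 above the median of all tested genes. With total-count scaling it was -1.55, where the median of all tested genes was -1.59. On the quantile, cyclic loess and GC-corrected values above, limma gave adjusted p of 0.18, 0.25 and 0.288.

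Succinyl-CoA ligase splits succinyl-CoA with a shared alpha subunit (Suclg1) and a beta subunit that makes it either ATP-forming (Sucla2) or GTP-forming (Suclg2). Suclg1 (ENSMUSG00000052738, chromosome 6, 73248382 to 73276911, plus strand) had 23.8, 54.1 and 131 normalized reads in the border zone of mice 32, 34 and 40, against 196 and 276 in remote muscle of mice 40 and 43. Border zone mouse 32 was the lowest, and mouse 40 came nearest to the remote libraries without reaching them. The log2 change was -2.05 ± 0.85 (limma adjusted p = 0.242), and within mouse 40 the difference was -0.58. Sucla2 (ENSMUSG00000022110, chromosome 14, 73525319 to 73596142, plus strand) had 66.6, 18.5 and 95.4 normalized reads in the border zone of mice 32, 34 and 40, against 169 and 327 in remote muscle of mice 40 and 43. Here mouse 34 was the lowest, with 15 reads, and all 3 border zone libraries lay below both remote ones. Its log2 change was -2.23 ± 0.88 (limma adjusted p = 0.227), with -0.82 within mouse 40.

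Per kilobase, Sucla2 stood at 1.07 and 1.48 times the level of Suclg1 in remote muscle of mice 40 and 43. In border zone mice 32, 34 and 40 this ratio was 3.48, 0.42 and 0.91. Without division by length the remote ratios were 0.86 and 1.19, so which subunit was higher in mouse 40 depended on the lengths used. The GTP-forming subunit gene Suclg2 had 98.3, 51.7 and 288 normalized reads in the border zone of mice 32, 34 and 40, against 182 and 295 in remote muscle of mice 40 and 43, and its groups overlapped. Relative to Sucla2, the level of Suclg2 per kilobase was 0.98, 1.85 and 2.0 in border zone mice 32, 34 and 40, against 0.71 and 0.60 in remote muscle, with no overlap between the regions. The ratio to Sucla2 was chosen after its values were seen, and neither ratio was tested.

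Fumarase hydrates fumarate to malate. Fh1 (ENSMUSG00000026526, chromosome 1, 175600374 to 175625635, minus strand) had 101, 67.7 and 41.5 normalized reads in the border zone of mice 32, 34 and 40, against 130 and 268 in remote muscle of mice 40 and 43. Border zone mouse 40 was the lowest of the 5 libraries, unlike for any other of the 9 genes. The log2 change was -1.49 ± 0.78 (limma adjusted p = 0.328), and the difference within mouse 40 was -1.62, the largest among the 9 in that animal. Without remote mouse 43 the change was -0.97. On the opposite strand Kmo overlaps Fh1 by 5255 bases and averaged 5.95 normalized reads, and since the strand setting of the counting is not given, reads of the 2 genes cannot be told apart there. Mdh2, the malate dehydrogenase of the matrix (ENSMUSG00000019179, chromosome 5, 135778480 to 135790398, plus strand), had 285, 142 and 239 normalized reads in the border zone of mice 32, 34 and 40, against 451 and 652 in remote muscle of mice 40 and 43. All 3 border zone libraries lay below both remote ones, with mouse 34 the lowest. Its log2 change was -1.34 ± 0.58 (limma adjusted p = 0.253), with -0.91 within mouse 40.

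**Figure D2:**
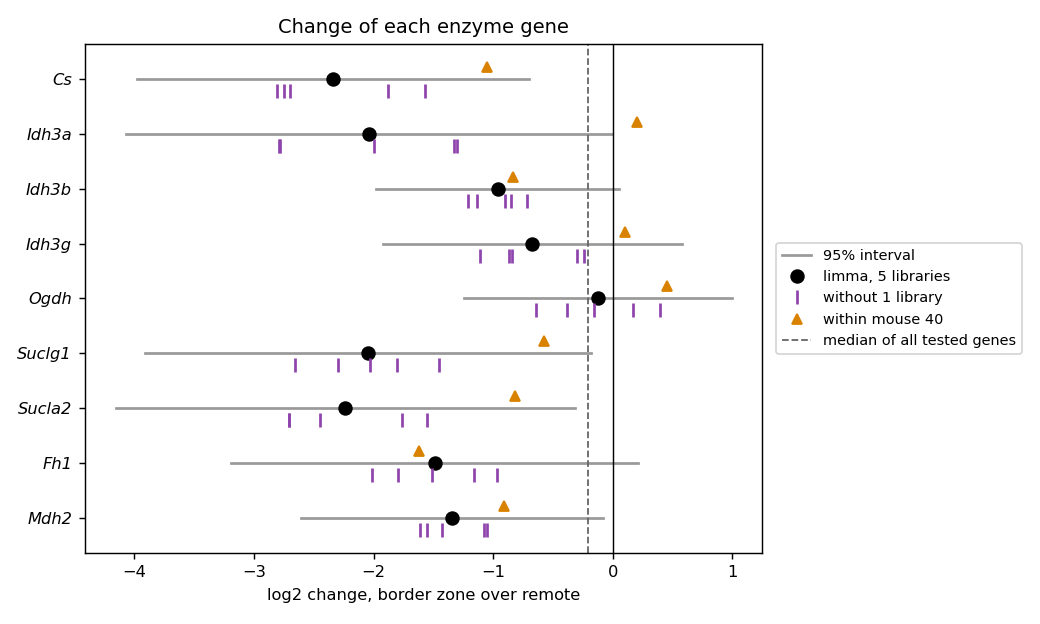
Log2 change of each of the 9 genes, border zone over remote (limma, black, with 95% interval), with the values without 1 library (purple ticks) and within mouse 40 (orange triangles); the dashed line is the median of all tested genes, -0.21. Within mouse 40, Idh3a, Idh3g and Ogdh lie to the right of 0 and the other 6 to the left.

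Mouse 40 allowed the regions to be set side by side in a single animal, without a test. There 6 of the 9 genes were lower in the border zone than in remote muscle, as were 49% of all tested genes, and the members' median difference was -0.82, against 0.02 for all genes. Idh3a (0.20), Idh3g (0.11) and Ogdh (0.45) were higher in the border zone of that animal on the log2 scale. Border zone mouse 40 also lay below both remote libraries for 6 of the 9, against 38.4% of all tested genes. Without border zone mouse 40, for which 33.7% of all tested genes had no overlap on the lower side, 7 of the 9 did. Without remote mouse 40, 9 of the 9 did, against 32.2% of all tested genes. The count was 6 without border zone mouse 32, without border zone mouse 34 or without remote mouse 43, against 25.6%, 26.2% and 26% of all tested genes.

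The 9 genes ranked in a similar order by level per kilobase in both regions. In remote muscle the means were 1253 ± 611 normalized reads per kilobase for Ogdh, 907 ± 221 for Idh3b, 344 ± 88.3 for Mdh2, 336 ± 139 for Idh3g and 327 ± 144 for Cs (SD, n = 2). They were 120 ± 80.5 for Idh3a, 111 ± 50.2 for Sucla2, 85.1 ± 20.5 for Suclg1 and 75.5 ± 37.1 for Fh1. By the spread between libraries Mdh2, Idh3g and Cs did not differ from each other, nor did the 4 lowest. The genes share these libraries, however. Mdh2, Idh3g and Cs changed order between the 2 remote libraries. Of the 4 lowest, Sucla2 lay above Suclg1 and Fh1, and Idh3a above Fh1, in both. Border zone means were 1133 ± 415 for Ogdh, 465 ± 104 for Idh3b, 214 ± 81.1 for Idh3g, 138 ± 45.7 for Mdh2 and 76.7 ± 48.6 for Cs (SD, n = 3), with the remaining 4 at 25.1 to 35.3. On the deposited scale, genes of higher level had smaller differences. Spearman's rho between mean level per kilobase and log2 change was 0.70 over the 9 genes, which share the same libraries. Across all 14989 tested genes the rho between mean normalized level, not divided by length, and log2 change was 0.34, and with the GC content of the longest transcript it was 0.32 over all tested genes that had a GC value and 0.65 over the 9.

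Composition within a library does not depend on scaling by 1 factor for each library. Quantile, cyclic loess and GC corrections can alter it, and shares were taken on the deposited scale alone. With GC and abundance trends removed the log2 change of Ogdh was -1.39 and that of Idh3b -1.37, against -0.12 and -0.96 on the deposited scale. Ogdh made up 61.1%, 43.9% and 50.2% of the summed level per kilobase of the 9 genes in border zone mice 32, 34 and 40, against 31.9% and 37.1% in remote mice 40 and 43. Cs made up 0.82%, 6.14% and 4.85% of it in those border zone libraries, against 8.76% and 9.45% in the remote ones. Mdh2 made up 6.99%, 5.36% and 6.66%, against 10.9% and 8.94%. The share of Ogdh was higher, and those of Cs and Mdh2 lower, in every border zone library than in both remote libraries. Shares of Sucla2, Suclg1 and Fh1 were lower in the same sense, at most 1.91%, 2.11% and 1.56% in the border zone and at least 2.95%, 2.19% and 1.91% in remote muscle. Those of Idh3a, Idh3b and Idh3g overlapped.

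As a share of all reads the 9 genes together lay lower in every border zone library than in both remote ones. They held 212, 191 and 480 reads per 1000000 in border zone mice 32, 34 and 40, against 705 and 1594 in remote muscle of mice 40 and 43. The 95% Wilson intervals, which cover counting error only, were 206 to 218, 186 to 197 and 470 to 490 in the border zone, against 691 to 720 and 1571 to 1618 in remote muscle. Without Ogdh the share was 50.6, 76.3 and 163 reads per 1000000 in the border zone, against 371 and 754 in remote muscle. The sum of normalized reads, by contrast, was 8409, 4954 and 7025 in the border zone and 7158 and 13197 in remote muscle, and there the groups overlapped. The 10 most abundant genes of a library held 45.6% to 60.3% of reads in the border zone and 34.4% and 43.5% in remote muscle. Under scaling to the total count the median change of all tested genes moved by -1.38, to -1.59, and that of the 9 genes was -2.91.

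**Figure D3:**
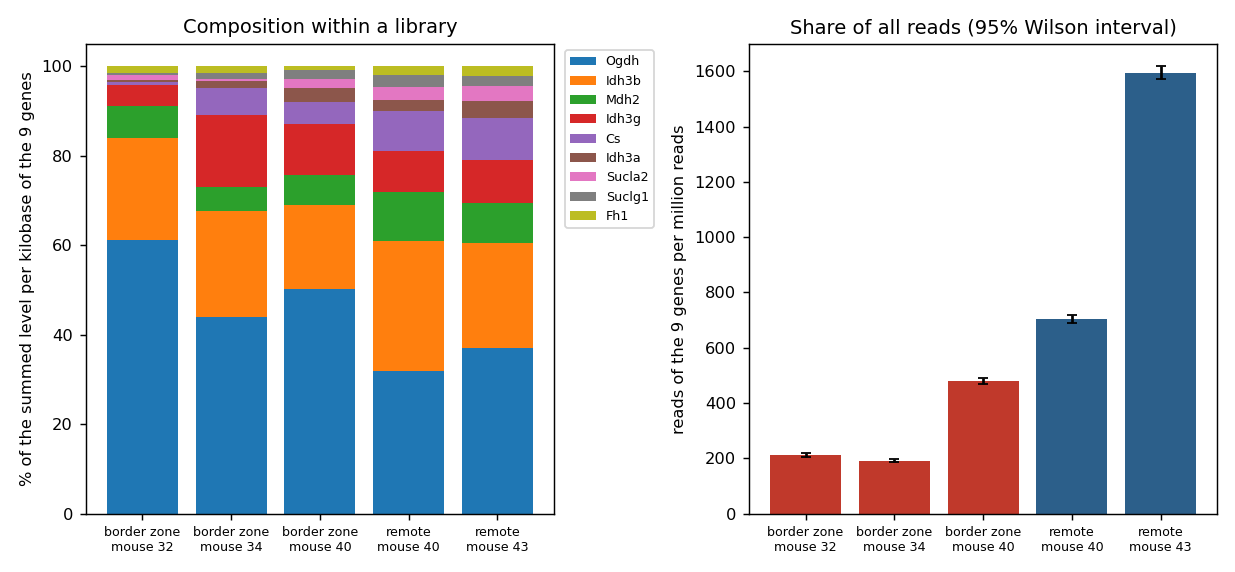
Left, share of each of the 9 genes in their summed level per kilobase in each library; right, their summed share of the library in reads per 1000000, with 95% Wilson intervals. Ogdh fills 43.9% to 61.1% of the bar in the border zone and 31.9% and 37.1% in remote muscle, and the share is 191 to 480 reads per 1000000 in the border zone and 705 and 1594 in remote muscle.

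The rest of the cycle gave a like picture of unequal differences. Its list also held the cytosolic counterparts Aco1, Idh1 and Mdh1 and the NADP-dependent Idh2. Of the other 12 cycle enzymes and subunits, all tested, 11 had a log2 change below 0, against 55% of all tested genes, and the median was -1.23. limma called 0 of these at an adjusted p under 0.05 and gave 6 at an unadjusted p under 0.05, against 7.87% of all tested genes on the lower side. edgeR called 0 and gave 6, against 6.52% of all genes on the lower side. DESeq2 and the authors' deposited table, whose values nearly coincide, called 0, against 1.98% of all genes on the lower side, and gave the same count of 5, against 5.91%. For 6 of the 12 the groups did not overlap, all lower in the border zone, namely Idh2, Dld, Sdha, Sdhc, Sdhd and Mdh1, against 20.3% of all tested genes. Aco1, a cytosolic enzyme and an RNA-binding regulator of iron, gave -0.50 ± 0.61. The NADP-dependent isocitrate dehydrogenases gave -1.43 ± 0.58 for the mitochondrial Idh2 and -0.52 ± 0.98 for the cytosolic Idh1, whose sign turned with GC and abundance trends removed (0.43).

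The partners of Ogdh in the alpha-ketoglutarate dehydrogenase complex differed from each other. Dlst, the E2 subunit that takes up the succinyl group, had 1617, 977 and 1167 normalized reads in the border zone of mice 32, 34 and 40, against 1163 and 1571 in remote muscle of mice 40 and 43, a log2 change of -0.14 ± 0.47. That change was -0.86 under quantile normalization, where the median of all tested genes was -0.06. With total-count scaling it was -1.57, where that median was -1.59. Dld, the E3 subunit, which the pyruvate dehydrogenase complex also uses, had 6.34, 23.4 and 87.6 normalized reads in those border zone libraries, against 140 and 266 in the remote ones, a log2 change of -2.95 ± 1.10 (limma adjusted p = 0.214). The level of Ogdh per kilobase was 2.66, 2.04 and 2.67 times that of Dlst in border zone mice 32, 34 and 40, against 1.95 and 2.97 times in remote mice 40 and 43, so this pair kept a similar proportion in all 5 libraries. The ratio of Ogdh to Dld per kilobase was 549, 69.2 and 28.8 in the border zone, against 13.2 and 14.2 in remote muscle. Dld had only 4, 19 and 112 reads in those border zone libraries, so the value of 549 rests on 4 reads of Dld. Both ratios were chosen after their values were seen.

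Succinate dehydrogenase is shared by the cycle and the respiratory chain, where it is complex II. Its flavoprotein gene Sdha gave a log2 change of -1.98 ± 0.64 (limma adjusted p = 0.176). The membrane anchor genes Sdhc and Sdhd gave -1.77 ± 0.67 and -3.08 ± 1.37. Sdhd had only 1, 11 and 29 reads in border zone mice 32, 34 and 40, against 46 and 253 in remote mice 40 and 43. Sdhb, the iron-sulfur subunit, had 563, 473 and 440 normalized reads in the border zone of mice 32, 34 and 40, against 505 and 767 in remote muscle of mice 40 and 43, a log2 change of -0.35 ± 0.50, and its groups overlapped. Under quantile normalization it was -0.78. Mdh1, the cytosolic malate dehydrogenase of the malate-aspartate shuttle, gave -1.62 ± 0.64, and Suclg2 gave -1.02 ± 0.80.

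**Figure D4:**
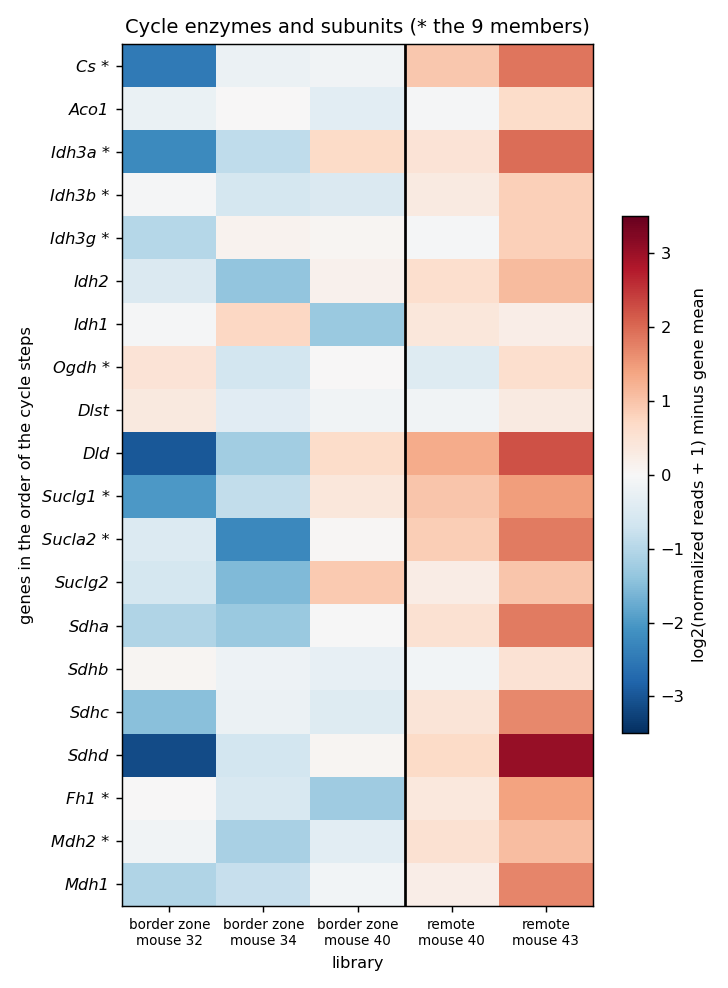
Level of the 9 enzyme genes (asterisks) and 11 other cycle enzymes and subunits in each library, as log2(normalized reads + 1) minus the gene's mean over the 5 libraries, in the order of the cycle steps. Dlst and Sdhb vary little in colour, Ogdh is highest in remote mouse 43 and lowest in border zone mouse 34, and Cs, Dld, Sdha and Mdh2 are below their mean in border zone mice 32 and 34 and above it in both remote libraries.

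Around the cycle, 22 of the 23 listed genes of substrate entry, refilling and export were tested. Of these, 20 had a log2 change below 0, against 55% of all tested genes, with a median of -1.23, and 9 had no overlap between the groups, all lower in the border zone, against 20.3% of all tested genes. limma called 0 of them and gave 5 at an unadjusted p under 0.05, against 7.87% of all tested genes on the lower side. edgeR called 0 and gave 4, against 6.52% of all genes on the lower side. In the authors' deposited table, and by DESeq2 on the recovered reads, 1 gene was called, Mpc2, a subunit of the carrier that brings pyruvate into mitochondria. Each called 1.98% of all genes with an adjusted p on the lower side. Mpc2 had 0, 4.92 and 32.9 normalized reads in the border zone of mice 32, 34 and 40, against 172 and 620 in remote muscle of mice 40 and 43, and its log2 change in the authors' deposited table was -4.93 with an adjusted p of 0.00479. By limma it was -5.81 ± 1.46 (adjusted p = 0.14). The next lowest of this group by limma was Slc25a1, the citrate carrier of the inner membrane, at -3.47 ± 1.76. It had only 0, 8 and 0 reads in border zone mice 32, 34 and 40, against 50 and 20 in remote mice 40 and 43. Slc25a13, an aspartate-glutamate carrier named after its values were seen (-3.24 ± 1.38), had 4.75, 28.3 and 405 normalized reads in the border zone of mice 32, 34 and 40, against 290 and 509 in remote muscle of mice 40 and 43. Border zone mouse 40 thus stood with the remote libraries for Slc25a13.

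The 8 genes of paralogs and assembly factors were all tested, and 7 of them had a log2 change below 0, with a median of -1.12. limma called 0 and gave 1 at an unadjusted p under 0.05, against 7.87% of all tested genes on the lower side, and 2 had no overlap between the groups, both lower, against 20.3% of all tested genes. Both shares were near those of all genes. Csl, a gene annotated as citrate synthase like, had 3.17, 0 and 3.91 normalized reads in the border zone of mice 32, 34 and 40, against 24.2 and 57.7 in remote muscle of mice 40 and 43, a log2 change of -3.81 ± 1.56 (limma adjusted p = 0.237). The highest changes among all listed genes around the cycle were those of Ogdhl, a paralog of Ogdh, at 0.47 ± 0.61, Pdhx, a structural subunit of the pyruvate dehydrogenase complex, at 0.12 ± 0.66, and Acly, which splits citrate in the cytosol, at 0.02 ± 0.57. Groups overlapped for all 3.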

How the data were processed

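Nuclear RNA was sequenced from PCM-1 sorted cardiomyocyte nuclei of 3 border zone and 2 remote samples. The authors deposited a signal that is never negative, gene reads scaled by 1 factor for each library. Per the submitters' processing notes, STAR, DESeq2 and mm10 were used, with no versions or roles given; for the counting tool, its strand setting and the annotation nothing is given in the sources used here. Divided by what 1 read is worth in its library, 100% of nonzero values came out whole within 0.01, so reads were recovered. Recovered size factors were 0.631, 0.813 and 1.28 in the border zone (mice 32, 34 and 40) and 1.32 and 1.37 in remote muscle (mice 40 and 43). The authors' deposited comparison table gives log2 fold changes, p-values and adjusted p-values, quoted as theirs. A second table gives the longest transcript length, used for levels per kilobase.

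Genes with a mean of at least 10 normalized reads (14989) were tested by limma 3.58.1 under R 4.3.3, two-sided, on log2(value + 1). The model held region alone and a trend of variance on mean, with Benjamini-Hochberg adjusted p under 0.05 over all of them. Changes are border zone over remote ± SE on that scale. A larger added value pulled changes of low genes toward 0, for Sucla2 to -2.25 with 0.5 added and to -2.12 with 5. The limma changes were still not always the smaller ones. Mpc2 gave -5.81 by limma and -4.93 by DESeq2, and Csl gave -3.81 and -4.09. edgeR 4.0.16 and DESeq2 1.42.0 were run on the recovered reads, and the procedures were tested on simulated data. p-values measure the spread between libraries and take both libraries of mouse 40 as independent.

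Members and lists were chosen with earlier results of these data known, so no list was tested. Named genes were the 9 members, the other 12 cycle enzymes and subunits, further listed genes called by any tool or table, the 3 highest and 3 lowest of the remaining listed genes, and the 5 genes of most similar profile. Genes singled out otherwise are said to be. Some named items are not reported here. Coordinates and GC content come from GENCODE M21, on the mm10 assembly. Cs overlaps the annotated gene Gm23182, Idh3b overlaps Nop56 (by 5 bases) and Fh1 overlaps Kmo. In a search with blastn, no transcript of another gene matched a member at 90% identity over 300 bases.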

Additional observations from a re-analysis of the deposited data

How the results depend on the processing

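Depth and library number limit these results: the lowest read count among the 9 genes was 14, 15 and 53 in border zone mice 32, 34 and 40, against 172 and 367 in remote mice 40 and 43, and 3 libraries were compared with 2. No paired analysis was possible because the regions share only 1 animal, mouse 40, which leaves no residual degrees of freedom. limma called 0 of the 9 genes under all alternatives, as did edgeR and DESeq2. Over all tested genes limma's 0 calls became 1 with total-count scaling and 1 with quantile normalization. DESeq2 called 902 of the 16592 genes to which it gave an adjusted p, 894 of them among the tested genes. For limma without 1 library the calls ran from 0 to 235, the 235 without border zone mouse 40. For the other cycle genes 0 calls became 1 with DESeq2. The median of the 9 genes minus that of all genes was -1.28. It stayed negative under all alternatives run and ran from -1.79 (without remote mouse 40) to -0.88 (without remote mouse 43) without 1 library. The same difference for the other cycle genes was -1.02, and -0.39 within mouse 40. The number of members with no overlap ran from 6 to 9 without 1 library, counts added after seeing the data. Within mouse 40 the sign turned for Idh3a (0.20), Idh3g (0.11) and Ogdh (0.45), and that of Ogdh also without border zone mouse 34 (0.17) and without remote mouse 43 (0.39). Without 1 library Ogdh ran from -0.64 to 0.39. With total-count scaling it was -1.55, where the median of all tested genes was -1.59. Ogdh was at -1.25 with quantile normalization, -1.28 with cyclic loess and -1.39 with GC and abundance trends removed. The medians of all tested genes there were -0.06, -0.01 and -0.02, and the cause was not tested.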

Other observations

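The mean profile of the 9 genes over the 5 libraries, as log2(normalized reads + 1) minus each gene's own mean, was -0.87, -0.78 and -0.11 in border zone mice 32, 34 and 40, against 0.45 and 1.32 in remote mice 40 and 43. Border zone mouse 40 thus lay between the other border zone libraries and the remote ones. The genes nearest to this profile outside the 9, by root mean square difference over the 5 libraries, were Slc47a1, which encodes a transporter of organic cations (0.10 log2 units), BC004004 (0.10), Rfwd3, a ubiquitin ligase (0.12), Ccm2, a scaffold protein (0.12), and LOC101056094 (0.13). The median tested gene stood 1.27 log2 units away. Slc47a1 had 117, 111 and 168 normalized reads in the border zone of mice 32, 34 and 40, against 297 and 509 in remote mice 40 and 43. None of the 5 is an enzyme of the cycle, and none passed the limma test (adjusted p = 0.199 to 0.391).

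Among the 9 themselves, Mdh2 (0.41) and Idh3b (0.48) lay nearest to the mean profile, and Cs (0.83) and Ogdh (0.80) farthest from it. The low library differed by gene. Mouse 32 was the lowest of the border zone for Cs, Idh3a, Idh3g and Suclg1, mouse 34 for Idh3b, Ogdh, Sucla2 and Mdh2, and mouse 40 for Fh1. Remote mouse 43 was the highest of all 5 libraries for each of the 9. Every border zone library lay below remote mouse 43 for 32.2% of all tested genes. The share of these genes with remote mouse 43 highest of all 5 libraries was not counted.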
